A study of Drosophila melanogaster with 24 samples.

Results

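The genes described here encode subunits of respiratory complex I (NADH:ubiquinone oxidoreductase) of *Drosophila melanogaster*. They are the 32 genes, of 11982 with a probe set that carries 1 gene symbol, whose symbol begins with ND- in the annotation of the array. Of these, 27 are the main subunit genes and 5 are paralogues, that is, second copies of a subunit gene. Genes with several probe sets are represented by the one with the highest mean, which concerned ND-ACP (3 probe sets) and ND-B17 (2 probe sets).

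Complex I is the entry point of electrons from NADH into the respiratory chain of mitochondria. Its peripheral arm holds the N module, which oxidises NADH at a flavin and passes the electrons along iron-sulphur clusters, and the Q module, which hands them to ubiquinone. Its membrane arm pumps protons, and its core proteins are encoded by mitochondrial DNA, whereas the accessory subunits around them come from the nucleus. The roles given below are those of the mammalian counterparts. Flight muscle is rich in mitochondria, and copies of nuclear respiratory genes in *Drosophila* are often expressed mainly in the testis.

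Whole males of a laboratory stock founded from flies collected in the field were reared at a mean temperature of 25 or 15 °C, under a daily fluctuating or a constant regime. All flies stood at 20 °C before the assay and were then frozen either after ramping to 35 °C or from 20 °C, as adults in their first week. This gave 8 groups of 3 arrays each (25 °C fluctuating, 25 °C constant, 15 °C fluctuating and 15 °C constant, each at 35 and at 20 °C), and every array measured a pool of flies. Each of the 4 combinations of mean temperature and regime came from 1 cabinet, so that the cabinet cannot be told apart from mean temperature or from regime, and p-values measure the spread between pools of 1 cabinet.

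Levels are GC-RMA values on the log2 scale, so that a difference of 1 is a doubling. Replicate 3 of the 15 °C fluctuating group ramped to 35 °C had failed: its r with each other array was 0.208 to 0.216, where all remaining pairs of arrays had 0.969 to 0.998. It was left out, so that 23 arrays were used and this group has 2. Replicate 1 of the 15 °C constant group at 20 °C had a median level of 9.41 over 14 egg shell and yolk genes, against 4.05 to 4.84 on the others. Without that array as well, the counts of complex I genes that differed with mean temperature were the same in all 4 contrasts. Levels of complex I genes averaged over the 23 arrays between 5.40 (ND-B12) and 13.97 (ND-MLRQ), and since probe sets differ in brightness, levels were compared within a gene only. A gene is said to have risen or fallen where limma gave an adjusted p under 0.05, with Benjamini-Hochberg adjustment over all 18769 probe sets of the contrast.

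Mean temperature was the factor with which complex I genes differed most often. In flies reared at 25 °C, compared with 15 °C, 24 of 32 genes fell under the fluctuating regime at 35 °C, against a background of 24.1% of all genes that fell in this contrast. The count was 22 of 32 under the fluctuating regime at 20 °C (background 23.3%), 29 of 32 under the constant regime at 35 °C (background 28.5%) and 31 of 32 under the constant regime at 20 °C (background 28.0%). No complex I gene rose in any of these contrasts, and all 32 differences lay below 0 in each of them. The median log2 difference of the 32 genes was -0.33, -0.29, -0.48 and -0.50 in the same order, while the median over all genes was -0.04, 0.02, 0.01 and 0.02. Over the mean of the 4 contrasts all 32 genes fell, with a median of -0.40, where 34.3% of all genes fell. On a linear scale this median is 0.756 times the level at 15 °C. In RNA of whole flies, fewer cells of a type and less RNA per cell cannot be told apart.

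Of the 32 genes, 21 fell in all 4 contrasts, 4 in 3, 4 in 2 and 2 in 1, while ND-B12 passed in none of them. Of all genes, no more than 23.3% can have fallen in all 4, as that was the lowest share in a single contrast. For 15 genes each of the 12 arrays from 25 °C lay below each of the 11 arrays from 15 °C, which is 46.9% of the members, against 11.7% of all genes. The sizes of the 32 differences were ordered alike in the 4 contrasts, with Pearson's r of 0.854 to 0.935 and Spearman's rho of 0.693 to 0.920 across genes. Genes are not independent replicates, and these are descriptions. Without ND-B8, Pearson's r was 0.722 to 0.918. Of the 27 main genes, the 8 on the X chromosome had a median of -0.34 over the mean of the contrasts and the 19 on autosomes one of -0.39, and whether these differ was not tested.

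**Figure D1:**
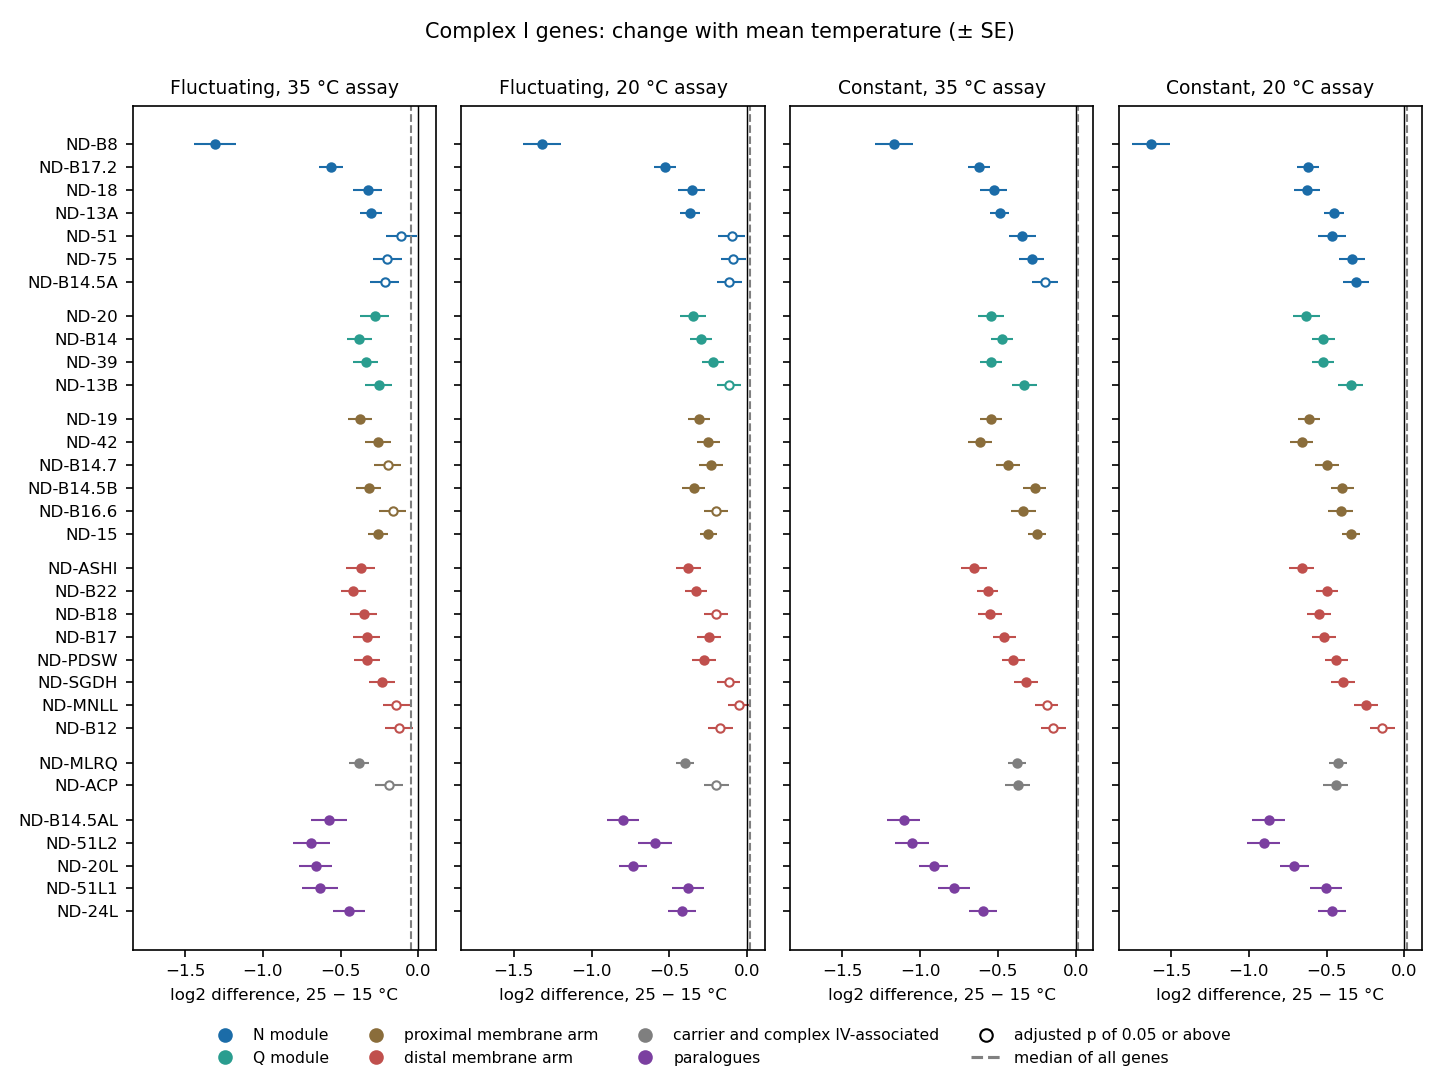
Log2 difference between 25 and 15 °C (x axis) of each complex I gene (y axis), by regime and assay temperature; points are limma estimates, bars their standard errors, filled points have an adjusted p under 0.05, and the dashed line is the median of all genes. All 32 points lie below 0 in each panel, ND-B8 is farthest to the left, and the 5 paralogues are filled in all 4 panels.

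ND-B8, which encodes an accessory subunit of the N module, had the largest difference of all members. Its log2 level under the constant regime at 20 °C was 8.83, 9.02 and 8.89 on the arrays from 25 °C, against 10.45, 10.57 and 10.59 on those from 15 °C. Under the fluctuating regime at 20 °C it was 9.12, 9.23 and 9.29 at 25 °C, against 10.50, 10.53 and 10.54 at 15 °C. The groups were separated in every contrast, and the closest values of the 2 mean temperatures lay 0.60 apart. In ramped flies the levels were 9.22, 9.59 and 9.28 at 25 °C fluctuating, against 10.67 and 10.68 at 15 °C fluctuating. They were 9.66, 9.18 and 9.86 at 25 °C constant, against 10.73, 10.77 and 10.71 at 15 °C constant. The log2 difference was -1.31, -1.32, -1.17 and -1.63 in the order fluctuating 35 °C, fluctuating 20 °C, constant 35 °C and constant 20 °C, with standard errors of 0.14, 0.12, 0.12 and 0.12. Over the 4 contrasts flies from 25 °C had 39.1% of the 15 °C level (adjusted p = 6.4e-13, limma). ND-B8 overlaps the gene Gs1l in the genome, and Gs1l rose by 0.34 over the mean of the 4 contrasts. ND-15, which 14 genes overlap, was left out of the count that follows. Of 15 measured genes that are the only gene overlapping a complex I gene, 3 fell, 6 rose and 6 did not pass the test over that mean. The 3 that fell were CG4230, which overlaps ND-13A (-0.38, beside -0.40 for ND-13A), Trpm, which overlaps ND-51L2 (-0.21), and CG34214, which overlaps ND-19 (-0.17).

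All 7 genes of the N module fell over the mean of the 4 contrasts. ND-51 encodes the core subunit that binds FMN and oxidises NADH, and ND-75 the core subunit with several of the iron-sulphur clusters. ND-51 lay between 11.46 and 12.02 on the arrays from 25 °C (median 11.76), against 11.74 to 12.28 on those from 15 °C (median 12.04). These 2 ranges overlapped. Both core genes fell in the 2 contrasts of the constant regime, ND-51 by 0.46 and ND-75 by 0.34 on the log2 scale at 20 °C. In fluctuating flies at 20 °C their differences were -0.10 (adjusted p = 0.446) and -0.09 (adjusted p = 0.467), which did not pass the test. The accessory gene ND-B14.5A had the smallest mean difference of the module, -0.21, and fell in 1 contrast, constant at 20 °C. Its levels overlapped widely, at 11.34 to 11.78 at 25 °C (median 11.53), against 11.52 to 11.87 at 15 °C (median 11.75). ND-B17.2, ND-18 and ND-13A, accessory subunits as well, fell in all 4 contrasts, with mean differences of -0.58, -0.46 and -0.40. For ND-18, which is needed for a stable N module in mammals, the arrays from 25 °C ranged from 10.43 to 10.86 and those from 15 °C from 10.76 to 11.27.

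The 4 genes of the Q module all fell over the mean of the contrasts, with a median of -0.41. ND-20, the core subunit with the last iron-sulphur cluster before ubiquinone, had a median level of 11.37 at 25 °C (11.20 to 11.58), against 11.91 at 15 °C (11.58 to 12.03). These ranges met but did not overlap. ND-20 fell by 0.28, 0.35, 0.54 and 0.63 on the log2 scale in the order given above. ND-B14 and ND-39, both accessory, fell in all 4 contrasts as well, and ND-39 is the subunit that binds NADPH. ND-13B differed least, with a median level of 10.50 at 25 °C (10.29 to 10.67), against 10.75 at 15 °C (10.58 to 10.96). It did not pass the test in fluctuating flies at 20 °C (-0.12, adjusted p = 0.295).

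All 6 genes of the proximal part of the membrane arm fell over the mean of the contrasts, by 0.27 to 0.46 on the log2 scale. ND-19, an intermembrane-space subunit, had the largest difference, with a median level of 11.07 at 25 °C (10.84 to 11.21), against 11.52 at 15 °C (11.19 to 11.69). ND-15 had the smallest, with a median of 11.63 (11.57 to 11.76) at 25 °C, against 11.93 (11.80 to 11.97) at 15 °C, but its 2 ranges were separate and it fell in all 4 contrasts. ND-B16.6, known in mammals as GRIM-19, fell under the constant regime, by 0.34 at 35 °C and 0.41 at 20 °C. Its differences under the fluctuating regime were -0.16 (adjusted p = 0.164) at 35 °C and -0.20 (adjusted p = 0.0522) at 20 °C. The accessory genes ND-B14.5B and ND-B14.7 fell in 4 and 3 contrasts, with mean differences of -0.33 and -0.34, and the range of ND-42, an accessory gene too, was 11.43 to 11.67 at 25 °C, against 11.69 to 12.18 at 15 °C.

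The distal part of the membrane arm held both small and large differences. ND-ASHI fell most, with a mean difference of -0.52, and its levels were 10.62 to 10.94 at 25 °C (median 10.79), against 11.10 to 11.45 at 15 °C (median 11.36). ND-B22, ND-B17 and ND-PDSW also fell in all 4 contrasts, with mean differences of -0.45, -0.39 and -0.36. ND-B18 and ND-SGDH each fell in 3 contrasts and did not pass in fluctuating flies at 20 °C, where they differed by -0.20 (adjusted p = 0.0512) and -0.12 (adjusted p = 0.261). ND-MNLL fell in 1 contrast, and its difference under the fluctuating regime at 20 °C was -0.05. ND-B12 differed by -0.13 to -0.17 in the single contrasts, with adjusted p of 0.109 to 0.313. Its levels were 5.16 to 5.48 at 25 °C (median 5.33), against 5.36 to 5.64 at 15 °C (median 5.45). The median of all probe sets was 6.45 to 6.65 on the arrays used, so that ND-B12 read below it on each of them. Whether this low level bears on the small differences of ND-B12 was not tested. Over the mean of the 4 contrasts ND-B12 fell by 0.15 (adjusted p = 0.00481).

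Beyond the arms, the mammalian counterpart of ND-MLRQ, NDUFA4, is found with complex IV. ND-MLRQ read 13.67 to 13.84 at 25 °C (median 13.78), against 14.11 to 14.26 at 15 °C (median 14.17), and fell in all 4 contrasts by 0.38 to 0.43. Its lowest array from 15 °C lay 0.27 above its highest array from 25 °C. ND-ACP, the mitochondrial acyl carrier protein, fell under the constant regime, by 0.37 at 35 °C and 0.44 at 20 °C. Its levels were 11.18 to 11.37 at 25 °C (median 11.28), against 11.28 to 11.75 at 15 °C (median 11.60). Under the fluctuating regime it differed by -0.19 and -0.20 at 35 and 20 °C, and did not pass the test. Its 2 further probe sets fell at 35 °C under the fluctuating regime (-0.27 and -0.35), so that this call depends on the probe set.

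Of the 5 paralogues, ND-20L, ND-24L, ND-51L1, ND-51L2 and ND-B14.5AL, all fell in all 4 contrasts, and the median of their log2 differences was -0.63, -0.59, -0.91 and -0.71, in the order fluctuating 35 °C, fluctuating 20 °C, constant 35 °C and constant 20 °C. That of the 27 main genes was -0.30, -0.25, -0.44 and -0.46, and the difference between the lists was not tested. ND-B14.5AL fell most, with a median level of 9.80 at 25 °C (9.50 to 10.10), against 10.66 at 15 °C (10.34 to 10.83). ND-51L2 had a median of 8.20 at 25 °C (7.85 to 8.75), against 9.07 at 15 °C (8.88 to 9.27). For 4 of the 5 paralogues the ranges of the 2 mean temperatures were separate, ND-24L being the exception, with 9.38 to 9.89 at 25 °C and 9.78 to 10.21 at 15 °C. Beside their main genes, the mean differences were -0.84 for ND-B14.5AL and -0.21 for ND-B14.5A, -0.75 for ND-20L and -0.45 for ND-20, and -0.58 and -0.81 for ND-51L1 and ND-51L2 and -0.25 for ND-51. Whether a paralogue differed more than its main gene was not tested, and the probe set of ND-20 is of a type that can match more than 1 gene.

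**Figure D2:**
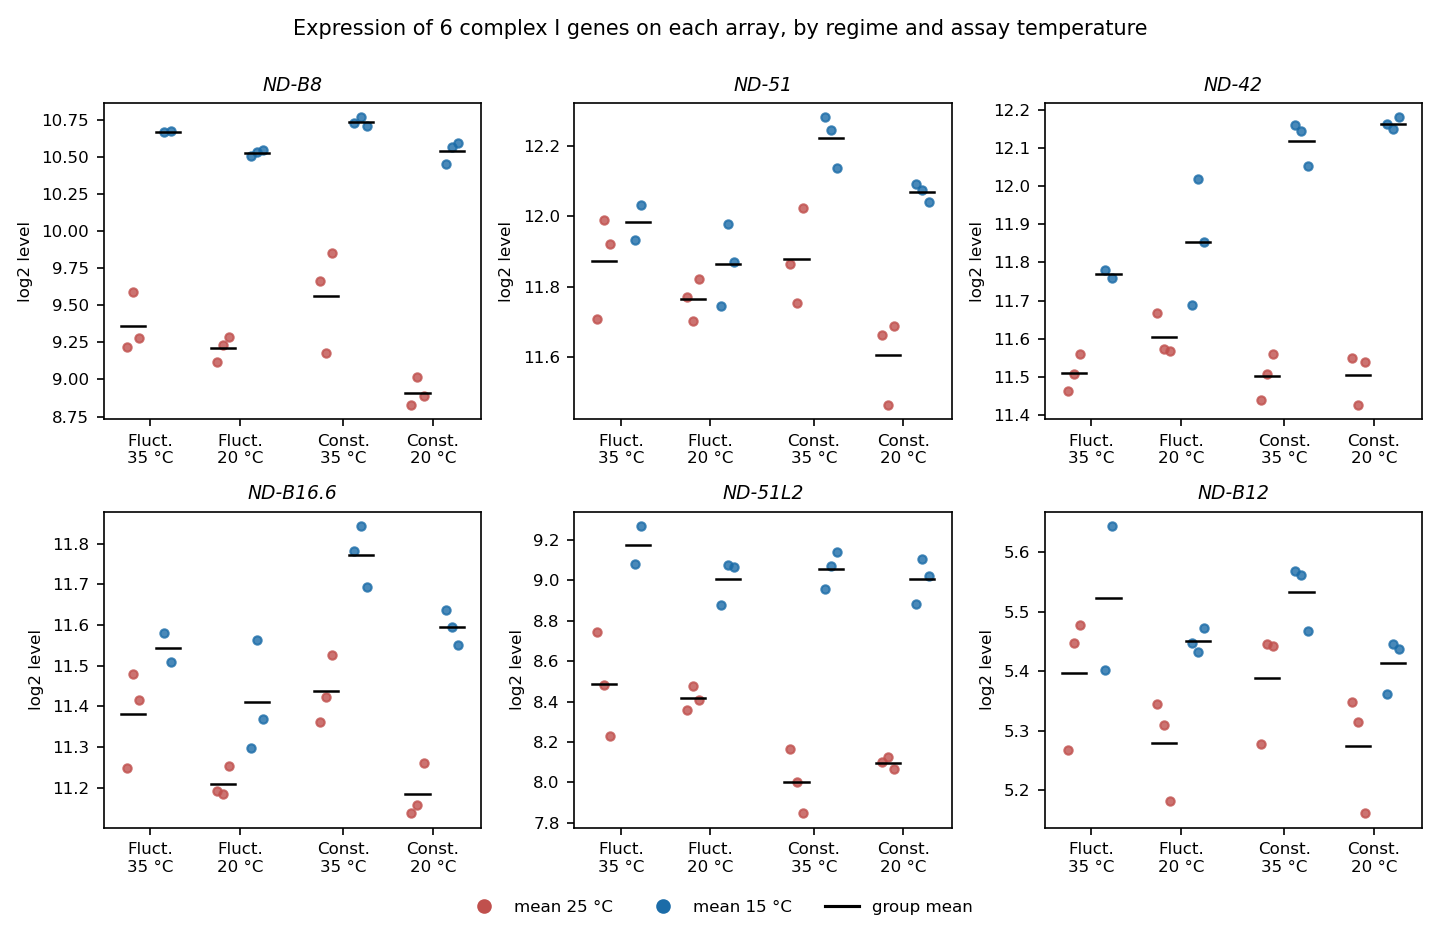
Log2 level (y axis) of 6 complex I genes on each of the 23 arrays, by regime and assay temperature (x axis), with flies from 25 °C in red left of flies from 15 °C in blue and group means as black lines; each y axis has its own range and does not start at 0. Over all arrays, ND-B8 and ND-51L2 are separated by mean temperature, whereas the ranges of ND-51 and ND-B12 overlap. Within the 4 pairs of groups, ND-51 overlaps under the fluctuating regime only, and ND-B12 only under the fluctuating regime at 35 °C.

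Markers of other tissues moved with mean temperature too. The median level of 11 flight muscle markers was 10.43 to 10.70 on the arrays from 25 °C, against 11.31 to 11.86 on those from 15 °C. Of these markers 10, 11, 11 and 10 fell in the 4 contrasts, in the order fluctuating 35 °C, fluctuating 20 °C, constant 35 °C and constant 20 °C. The flight muscle genes fln (flightin, a thick filament protein), TpnC4 (a troponin C) and Act88F (an actin) were lower on every array from 25 °C than on any from 15 °C, with fln at 6.57 to 9.45 at 25 °C, against 10.64 to 11.71 at 15 °C. Of 18 testis markers 13, 17, 16 and 16 fell, 1 (mia) rose, and their median level was 7.16 to 7.94 at 25 °C, against 8.26 to 8.61 at 15 °C. Over the same arrays the median of the 27 main complex I genes was 11.28 to 11.56 at 25 °C, against 11.58 to 11.94 at 15 °C, and that of the 5 paralogues 8.34 to 8.91, against 9.17 to 9.47. The part of flight muscle or testis in the differences of complex I genes was not tested.

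**Figure D3:**
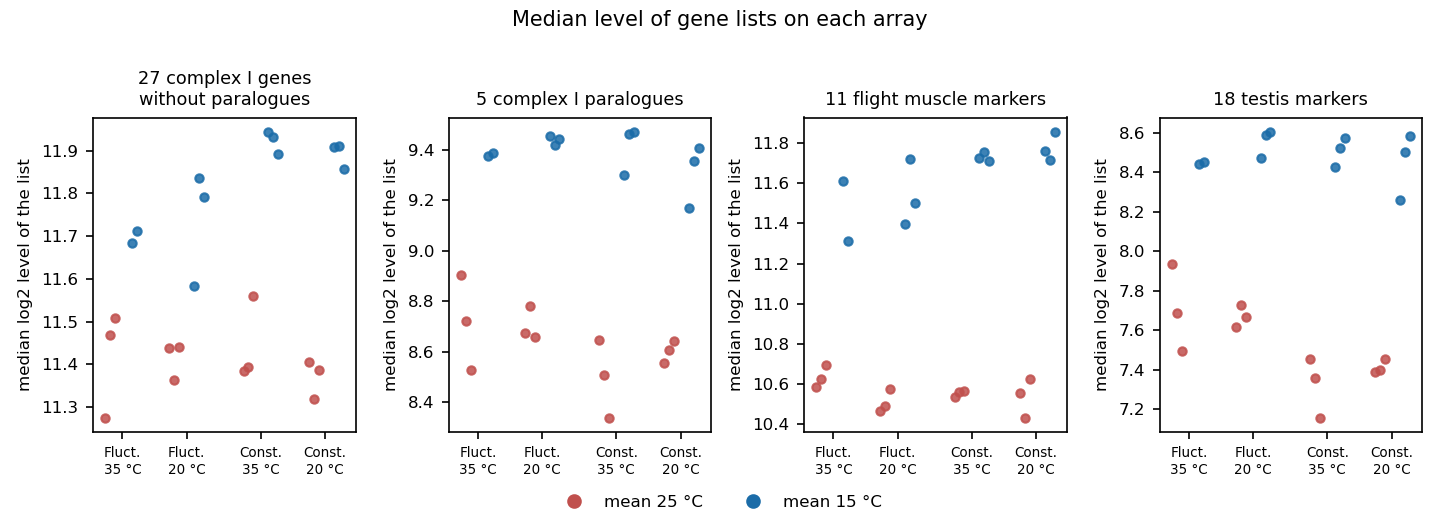
Median log2 level (y axis) on each of the 23 arrays of the 27 main complex I genes, the 5 paralogues, 11 flight muscle markers and 18 testis markers, by regime and assay temperature (x axis), with flies from 25 °C in red left of flies from 15 °C in blue; each y axis has its own range and does not start at 0. In all 4 lists every array from 25 °C lies below every array from 15 °C.

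The genes whose levels over the 23 arrays were most like the mean of the complex I genes came mostly from mitochondrial energy metabolism. They were Mpcp1, a mitochondrial phosphate carrier (r = 0.994), COX5A and COX5B of complex IV (r = 0.989 and 0.987), SdhD of complex II (r = 0.988) and Idh3a of the citric acid cycle (r = 0.986), out of 10927 genes compared. For the paralogues alone they were fzr2, topi, CG10616, Scsalpha2 and CG8197, with r of 0.990 to 0.995. Of these, topi is a testis marker needed for male meiosis, and its levels were 7.06 to 7.98 at 25 °C, against 8.46 to 8.84 at 15 °C. Such correlations over arrays of 2 mean temperatures are descriptions and carry no test.

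Other genes of oxidative phosphorylation fell in the same contrasts. Of 26 main genes of complexes II to V, 23, 24, 25 and 25 fell and 1 rose in the 4 contrasts, and the medians were -0.36, -0.35, -0.55 and -0.53. Of these, SdhD, a membrane anchor of complex II, had the largest fall, with a mean of -0.73, whereas COX7A of complex IV rose by 0.34. All 17 genes named as paralogues of complexes II to V fell over the mean of the contrasts, with a median of -0.59. The 3 genes of NAD-dependent isocitrate dehydrogenase (Idh3a, Idh3b and Idh3g), which supplies NADH, also fell over that mean, by 0.47 to 0.70. The assembly factor CIA30 fell in 1 contrast, constant at 20 °C, by 0.28.

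Genes of the mitochondrial ribosome shared no direction over the 4 contrasts. Of all genes, 24.1%, 23.3%, 28.5% and 28.0% fell in the 4 contrasts, in the order used above. The shares that rose were 17.4%, 22.7%, 27.7% and 26.2%. Of 69 mitochondrial ribosomal protein genes, 12, 5, 18 and 31 fell and 3, 12, 4 and 0 rose in the 4 contrasts, with medians of -0.02, 0.07, -0.05 and -0.18. Of 41 genes named as cytosolic ribosomal proteins 29, 31, 30 and 25 rose, and 5, 6, 7 and 7 fell. This list was taken by name and also holds genes named as -like, such as RpL7-like. Its largest fall over the mean of the contrasts was that of RpS28a, by 1.07. Among 7 regulators of mitochondrial biogenesis, 3 rose and 3 fell over the mean of the contrasts and mtTFB2 differed by 0.00. ERR, an oestrogen-related receptor, ewg and foxo rose by 0.42, 0.36 and 0.34. Ets97D, the fly counterpart of the nuclear respiratory factor GABPA, TFAM, which packs mitochondrial DNA, and PolrMT, the mitochondrial RNA polymerase, fell by 0.39, 0.35 and 0.15.

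Temperature fluctuation was compared next, to see whether the regime mattered apart from the mean. Few genes passed the test between fluctuating and constant flies, among all genes as among complex I genes. At 25 °C, 1 gene passed the test at 35 °C (background 1.28%) and 0 at 20 °C (background 1.33%; 2 genes at an unadjusted p under 0.05). At 15 °C, 1 gene passed at 35 °C (background 2.53%) and 1 at 20 °C (background 2.50%). At an unadjusted p under 0.05 (limma) the counts were 4, 2, 13 and 15 of the 32 genes in the same order. The share of all genes at that unadjusted threshold was not computed, here or for the interactions and ramping below. The backgrounds given beside such counts are shares at the adjusted threshold. The median log2 differences were -0.03, 0.07, -0.12 and -0.14 in this order, and the median over all genes was -0.01, 0.00, 0.02 and -0.03. With arrays centred on their median they were -0.06, 0.08, -0.17 and -0.07. At 15 °C the difference was below 0 for 29 of 32 genes at 35 °C and for 28 of 32 at 20 °C, while at 25 °C and 20 °C it was above 0 for 31 of 32.

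The gene that fell in fluctuating flies at 15 °C was ND-42, an accessory subunit of the membrane arm. It was singled out after its values had been seen. In ramped flies its levels were 11.78 and 11.76 under the fluctuating regime, against 12.16, 12.14 and 12.05 under the constant regime, a log2 difference of -0.35 ± 0.08 (SE, adjusted p = 0.0311). At 20 °C they were 11.69, 12.02 and 11.85, against 12.16, 12.15 and 12.18, a difference of -0.31 ± 0.07 (adjusted p = 0.0304). No fluctuating array reached the lowest constant array of its pair. Both calls depended on single arrays: leaving out 1 array at a time, the adjusted p ranged from 0.0161 to 0.225 at 35 °C and from 0.0178 to 0.176 at 20 °C. At 35 °C no gene passed without replicate 1 or 2 of the constant group or replicate 2 of the fluctuating group, and at 20 °C none passed when any 1 of the 3 constant arrays (the one high in egg shell genes included) was left out, or replicate 1 or 3 of the fluctuating group. At 25 °C ND-42 differed by 0.01 at 35 °C and 0.10 at 20 °C and did not pass the test (adjusted p = 0.977 and 0.657). Of the 11 flight muscle markers, 1 fell at 15 °C in each of the 2 contrasts, with medians of -0.22 at 35 °C and -0.15 at 20 °C, and their part in the values of ND-42 was not tested.

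At 25 °C and 35 °C the gene that rose in fluctuating flies was ND-51L2, a paralogue of ND-51. Its levels were 8.746, 8.481 and 8.232 in fluctuating flies, against 8.166, 8.001 and 7.847 in constant flies, a difference of 0.48 ± 0.11 (SE, adjusted p = 0.0430). The lowest fluctuating array lay just above the highest constant one. The call was lost on leaving out any of 14 of the 23 arrays, with adjusted p up to 0.279 (without replicate 3 of the 25 °C constant group at 35 °C). At 20 °C the levels were 8.36, 8.48 and 8.41, against 8.10, 8.13 and 8.07, and the difference of 0.32 did not pass the test (adjusted p = 0.204). All 5 paralogues were higher in fluctuating than in constant flies at 25 °C and 35 °C, with a median of 0.27, and the 18 testis markers, all above 0 in this contrast, had a median of 0.29. Their part in the difference was not tested.

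Over the mean of the 4 fluctuation contrasts 3 complex I genes passed the test, against 19.7% of all genes. ND-42 and ND-B18, a subunit of the distal membrane arm, both fell by 0.14, and ND-51L2 rose by 0.23 (adjusted p = 0.0193, 0.0212 and 0.00974). ND-B18 did not pass in the single contrasts, its closest values being -0.29 (adjusted p = 0.0595) at 15 °C and 20 °C and -0.27 (adjusted p = 0.116) at 15 °C and 35 °C.

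Whether the difference between 25 and 15 °C depended on the regime was tested as an interaction, which is above 0 where the fall was smaller in fluctuating flies. This interaction of mean temperature and regime had a median over the 32 genes of 0.15 at 35 °C and 0.23 at 20 °C. Over all genes it was -0.02 and 0.03. Among the 32 genes it was above 0 for 27 and 30. With arrays centred on their median, the median interaction of the 32 genes was 0.16 at 35 °C and 0.16 at 20 °C. No complex I gene passed the interaction test at 35 °C (background 0.0250%; 4 genes at an unadjusted p under 0.05) or at 20 °C (background 0.0751%; 14 genes at an unadjusted p under 0.05). The counts at an unadjusted p have no background here, as that share was not computed for all genes. Over both assay temperatures together, a contrast added after the values had been seen, 1 gene passed, ND-42 (background 3.56%). The smaller number of genes that fell in fluctuating flies is therefore not shown to be a difference between the regimes for any other single gene.

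The response to acute heat was read from flies ramped to 35 °C, compared with flies kept at 20 °C. Few complex I genes passed this test. At 25 °C, 0 of 32 passed under the fluctuating regime (background 21.5%; 1 gene at an unadjusted p under 0.05) and 3 under the constant regime (background 23.9%). At 15 °C, 0 passed under the fluctuating regime (background 16.8%; 0 at an unadjusted p under 0.05) and 0 under the constant regime (background 18.5%; 2 at an unadjusted p under 0.05). These backgrounds are at the adjusted p, and shares at the unadjusted one were not computed. The medians of the 32 genes were 0.01, 0.10, 0.08 and 0.06, and those of all genes -0.02, -0.05, 0.03 and 0.00. With arrays centred on their median the 32 genes had 0.03, 0.15, 0.02 and 0.13, and with quantile normalization -0.02, 0.05, 0.04 and 0.04, so that the sign of the first depended on the scaling. Of the 26 main genes of complexes II to V, 0 passed in any of the 4 contrasts.

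The 3 genes that rose with ramping in flies from constant 25 °C were ND-B8, ND-51 and ND-B16.6. ND-B8 had levels of 9.66, 9.18 and 9.86 at 35 °C, against 8.83, 9.02 and 8.89 at 20 °C, a difference of 0.65 ± 0.12 (SE, adjusted p = 0.000433). Its lowest ramped array stood near the unramped ones, and the ramped flies stayed below all arrays from 15 °C. ND-51 had 11.86, 11.75 and 12.02 at 35 °C, against 11.66, 11.46 and 11.69 at 20 °C, and rose by 0.27 ± 0.09 (adjusted p = 0.0347). ND-B16.6 had 11.36, 11.42 and 11.53, against 11.14, 11.16 and 11.26, and rose by 0.25 ± 0.08 (adjusted p = 0.0275). The groups did not overlap for any of the 3 genes. The second probe set of ND-B17 also rose in this contrast, by 0.22 (adjusted p = 0.0471), so that the call of ND-B17 depends on the probe set. When 1 array was left out at a time, ND-B8 kept an adjusted p of at most 0.00445, whereas ND-51 and ND-B16.6 reached 0.192 and 0.134. ND-51 did not pass without replicate 2 at 20 °C or replicate 1 or 3 at 35 °C, nor ND-B16.6 without replicate 1 or 2 at 20 °C or 2 or 3 at 35 °C. In this contrast 2 of the 11 flight muscle markers rose and 3 of the 18 testis markers fell, and their part in the result was not tested.

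Over the mean of the 4 ramping contrasts 6 complex I genes rose and 0 fell, against a background of 41.5% of all genes that passed in either direction. These were ND-B8 (0.29), ND-B16.6 (0.18), ND-51 (0.16), ND-18 (0.15), ND-24L (0.15) and ND-19 (0.15). The second probe set of ND-B17 rose by 0.16. With quantile normalization 7 genes rose and 2 fell, ND-42 by 0.10 and ND-MLRQ by 0.09. None of the 32 genes passed the test of an interaction of ramping with mean temperature, in fluctuating flies (background 0.0668%; 0 at an unadjusted p under 0.05) or in constant flies (background 0.893%; 1 at an unadjusted p under 0.05). The same held for ramping by regime at 25 °C (background 0%; 2 at an unadjusted p under 0.05) and at 15 °C (background 0%; 0 at an unadjusted p under 0.05).

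**Figure D4:**
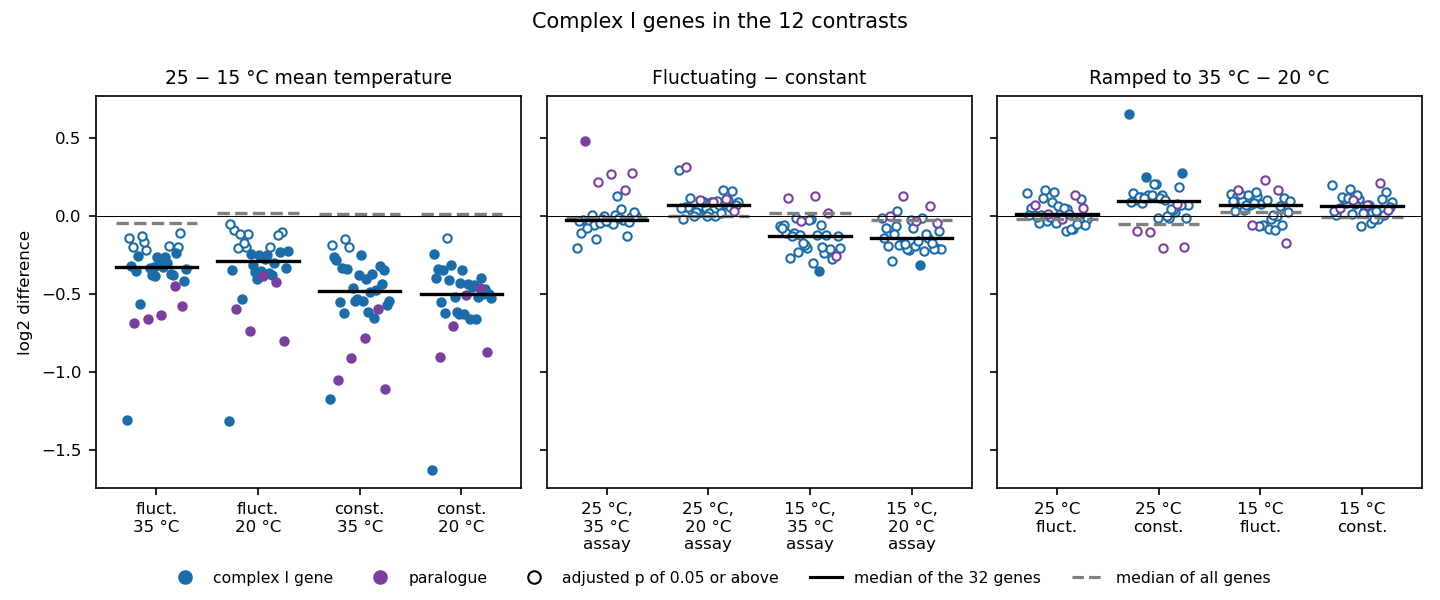
Log2 difference (y axis) of the 32 complex I genes in the 12 contrasts (x axis), with 25 minus 15 °C on the left, fluctuating minus constant in the middle and ramped minus 20 °C on the right; filled points have an adjusted p under 0.05, purple points are paralogues, and lines are medians of the 32 genes (black) and of all genes (grey, dashed). The points spread from -1.63 to -0.05 for mean temperature, and in the other panels most lie near 0 and are open.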

How the data were processed

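RNA of whole males was measured on 24 Affymetrix Drosophila Genome 2.0 arrays, 3 per group and 1 pool of flies each. The deposited log2 values are expression levels that the authors made from the probe intensities with GC-RMA (gcrma package in R), which corrects the background, normalizes between arrays and summarises each probe set. Such normalization assumes that the distribution of levels is alike on all arrays, as when most genes do not differ or rises and falls balance. Over the mean of the 4 mean temperature contrasts 34.3% of all genes fell and 35.5% rose. Most genes thus differed there, in nearly equal shares, and whether the assumption held was not tested. Scanner files were not used here.

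Of 18952 probe sets, 183 controls were left out. Of the 18769 tested, 13647 carry 1 gene symbol, 402 several and 4720 none. Only the first were named, so that ND-AGGG, ND-23 and other subunits, and the subunits encoded by mitochondrial DNA, were not analysed here. All 32 members matched a gene of the reference annotation by gene number. Of their probe sets 6 are of a type that can match more than 1 gene, those of ND-15, ND-19, ND-20, ND-B14.7, ND-MNLL and ND-PDSW. Another gene overlaps 20 of the members (Release 6 annotation).

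With limma 3.58.1 (R 4.3.3), 1 mean was estimated for each of the 8 groups from 23 arrays, without covariates, with 12 contrasts, 6 interactions and the mean of the 4 contrasts of each factor. The fit was tested on simulated data. The spread of the group with 2 arrays was taken from all groups. Benjamini-Hochberg adjustment ran over all probe sets of a contrast, with a threshold of 0.05. Summaries and figures were made in Python 3.11.15 with pandas 2.3.3 and matplotlib 3.10.9. The members, the lists and the array left out were chosen with earlier results of these data known.

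Genes were named by a rule: the member with the largest and the smallest mean difference with mean temperature in each structural group, and those with the largest mean differences with ramping (3) and fluctuation (2). Other members are given by their mean differences, and ND-42 was added. Deviations of same-numbered arrays of different groups had a median correlation of 0.005 (77 pairs, -0.438 to 0.565, 10 over 0.1). For arrays of other numbers it was 0.005 too (154 pairs, -0.568 to 0.389). The numbers were therefore not used to pair the arrays, but a median cannot exclude pairing between some of the groups. The alternatives were all 24 or 22 arrays, only the arrays of a contrast, a replicate block, a variance trend, median centring, quantile normalization, a minimum mean of 4, the mean of all probe sets of a gene, and leaving out each of the 23 arrays in turn.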

Additional observations from a re-analysis of the deposited data

Results flagged for a closer look

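ND-42, which encodes an accessory subunit of the membrane arm, was the only complex I gene for which the difference between 25 and 15 °C itself differed between fluctuating and constant flies, by 0.38 on the log2 scale over both assay temperatures (limma, adjusted p = 0.0145, and 0.00946 to 0.0331 when 1 array was left out at a time). It fell at 25 °C by 0.26 and 0.25 in fluctuating flies at 35 and 20 °C, against 0.62 and 0.66 in constant flies. The 11 flight muscle markers had a median of 0.20 in the same contrast and the 32 complex I genes one of 0.16. The part of flight muscle in the value of ND-42 was not tested, and the contrast was added after the values had been seen. The contrast shares its arrays with the fall of ND-42 in fluctuating flies at 15 °C and is not separate support for it. That ND-42 was the only gene holds for the main fit: 4 genes passed with the variance trend or the minimum mean of 4, and 3 with the mean of all probe sets.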

How the results depend on the processing

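In the 4 contrasts of mean temperature 0 complex I genes rose under any alternative that used 22 or 23 arrays. The array left out as failed had the largest influence: with all 24 arrays, 0 complex I genes passed in any of the 12 contrasts, and 1, 0 and 0 passed over the means of the 4 contrasts of mean temperature, fluctuation and ramping, and 0 in the added interaction of mean temperature and regime. With it the median became 1.25 for 25 against 15 °C in fluctuating flies at 35 °C, -1.79 for fluctuation at 15 °C and 35 °C, -1.52 for ramping in fluctuating flies from 15 °C, and 0.0020, -0.49 and -0.35 for the 3 means. In that contrast of mean temperature 30 of the 32 genes lay above 0 on 24 arrays, and among the genes named by the rule these 10 had passed the test and reversed: ND-13B (1.17), ND-15 (1.58), ND-19 (0.98), ND-20 (1.45), ND-24L (0.81), ND-51L2 (0.29), ND-ASHI (0.92), ND-B14.5AL (0.36), ND-B18 (1.31) and ND-MLRQ (1.47).

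On the arrays of a contrast alone, 7 genes fell at 25 °C in fluctuating flies at 35 °C, a fit with 5 arrays, 0 passed for fluctuation and 1 for ramping at constant 25 °C. With the replicate block the mean temperature contrasts gave 24, 22, 29 and 31 genes, in the order of the report, fluctuation 0 in all 4 contrasts and ramping 3 at constant 25 °C. The counts for fluctuation at 15 °C and 20 °C were 0 on 22 arrays, 0 with median centring and 2 with the variance trend, the minimum mean of 4 or the mean of all probe sets. Median centring gave 3 for fluctuation at 15 °C and 35 °C, 0 at 25 °C and 35 °C, and for ramping 2 at constant 15 °C, 5 at constant 25 °C and 10 over the mean. Quantile normalization gave 1 for ramping at constant 25 °C, and over the mean of ramping 7 that rose and 2 that fell, with a median of 0.03. The variance trend, the minimum mean and the mean of all probe sets gave 5 genes each over the mean of the fluctuation contrasts, and 4, 4 and 3 for the added interaction, which was 2 with quantile normalization.

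Leaving out 1 array at a time, 16 to 24, 18 to 25, 29 to 31 and 31 to 31 genes fell at 25 °C, in the order of the report. The lowest count, 16, came without replicate 2 of the 15 °C fluctuating group at 35 °C, which leaves that group with 1 array. The lone array is then assumed to vary like the other groups. Counts were 0 to 4 and 0 for fluctuation at 25 °C (35 and 20 °C), 0 to 1 and 0 to 2 at 15 °C, and 1 to 4 for ramping at constant 25 °C, where 1 came without replicate 2 at 20 °C or replicate 3 at 35 °C. Over the means they were 32, 3 to 6 and 5 to 8, for the added interaction 1 to 4, and 0 to 1 for mean temperature by regime at 35 °C and by ramping in constant flies. The counts of 4 and 6 for fluctuation came without replicate 3 of the 25 °C fluctuating group at 35 °C, and that of 4 for the added interaction, like the lowest of 18, without replicate 2 of the 15 °C fluctuating group at 20 °C. Precision is limited by the small number of arrays.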
